A study of Mus musculus with 4 samples.

Results

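The genes examined were 10 transcription factors known from mesenchymal cells, namely Prrx1, Prrx2, Twist1, Twist2, Runx1, Runx2, Tcf21, Osr1, Meox1, and Snai2. They were named with earlier results of these data known and then found by symbol, without a threshold on their values. All 10 were found once each among the 33565 genes listed in the matrices. Their levels and the share of cells with at least 1 UMI were measured in 3 mouse cell lines that went through 1 CapSeq experiment, a split-pool method in which the BC1 barcode of the opening barcoding round marks the line. Neuro-2a (N2a) is a mouse neuroblastoma line (BC1 plate columns 1 to 4) and NIH/3T3 is a fibroblast line from mouse embryos (columns 5 to 8), and both grew in DMEM with 10% serum. The mouse embryonic stem cells (mESCs) were of the E14TG2a line (columns 9 to 12) and grew on gelatin with 15% serum, leukemia inhibitory factor, 3 µM CHIR99021, and 1 µM PD0325901, so line and medium cannot be told apart for the mESCs.

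Mesenchymal cells are the loosely arranged cells of the embryo that form connective tissue, cartilage, and bone, and fibroblasts are among their descendants. The genes fall into small families of DNA-binding proteins. PRRX1 and PRRX2 are paired-type homeodomain proteins of limb and facial mesenchyme, and TWIST1 and TWIST2 are basic helix-loop-helix proteins that pair with E proteins. RUNX1 and RUNX2 bind DNA together with CBFB, RUNX1 being known from blood formation and RUNX2 from bone formation. OSR1 is a zinc finger protein of intermediate mesoderm and connective tissue, TCF21 is a helix-loop-helix protein of visceral mesenchyme, MEOX1 is a homeodomain protein of somites, and SNAI2 is a zinc finger repressor known from the epithelial to mesenchymal transition.

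A barcode was kept as a cell if it had 1000 UMIs or more, of which no more than 20% were mitochondrial. This gave 2323 N2a, 2037 NIH/3T3, and 2137 mESC cells with 17955221, 11697865, and 12322098 UMIs, and medians of 6185, 4863, and 4803 UMIs per cell. No barcode was shared between lines (0 barcodes), which the split by BC1 fixed in advance. Each line was 1 library without replicates, so no test between lines was possible and no p-value is given. Levels are CPM, the UMIs of a gene summed over the cells of a line and scaled to a total of 1e6 UMIs, and the 95% intervals in parentheses are exact Poisson intervals for levels, exact binomial intervals for shares, and exact conditional binomial intervals for folds. These intervals include no error other than that of counting. For a gene with no UMI, a fixed floor of 3 UMIs was used. It equals 0.167 CPM for N2a, 0.256 CPM for NIH/3T3, and 0.243 CPM for mESCs. The exact 95% upper bounds for 0 UMIs are higher, at 0.205, 0.315, and 0.299 CPM in the same order. Folds against a line at 0 UMIs were taken against the floor, and they are not 95% bounds. Of the fixed line markers, 6 of 6 fibroblast genes were highest in NIH/3T3 and 6 of 6 stem cell genes in mESCs, whereas 4 of 6 neuroblastoma genes were highest in N2a.

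The sequences ahead of the Twist genes are shown. These paralogs had different patterns outside NIH/3T3, described further on, and a link of the patterns to the sequences was not tested. The sequences are from the RefSeq promoter table, which held 7 of the 10 genes, and each was found at a single place in GRCm39. Twist1 lies at chr12:34007420-34007644 and Twist2 at chr1:91728933-91729175, both on the plus strand and ending at the base before the annotated gene. Capitals mark CG dinucleotides, 16 in the Twist1 stretch and 23 in the Twist2 stretch.
Twist1: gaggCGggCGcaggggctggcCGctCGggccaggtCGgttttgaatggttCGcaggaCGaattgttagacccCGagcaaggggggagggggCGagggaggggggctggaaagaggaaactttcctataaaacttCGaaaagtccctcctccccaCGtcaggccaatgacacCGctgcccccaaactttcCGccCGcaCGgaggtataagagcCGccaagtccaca
Twist2: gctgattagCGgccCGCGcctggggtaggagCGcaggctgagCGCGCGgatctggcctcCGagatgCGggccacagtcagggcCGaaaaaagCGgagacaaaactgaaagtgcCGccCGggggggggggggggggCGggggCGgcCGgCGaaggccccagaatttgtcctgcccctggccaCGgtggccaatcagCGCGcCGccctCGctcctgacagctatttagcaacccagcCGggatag
Over the full 250 bases before the RefSeq start, Twist1 had 18 and Twist2 23 CG dinucleotides, and the median of all 32851 promoters in the table was 6. In the same window, Prrx1 had 4 and Prrx2 21. The windows of Prrx1 and Prrx2 lie wholly inside the annotated genes, so they are not ahead of the annotated starts. Runx1 has 2 RefSeq starts, and the window of the upstream one held 2 CG dinucleotides while that of the downstream one held 27. The E-box letters CANNTG, which read the same on both strands and are the kind of site that TWIST and SNAI2 bind, were absent from 6 of the 8 windows of the factors, and 66.2% of all promoters held them. The upstream Runx1 window held 3 and the Runx2 window 1. The Twist1 window alone among the 8 held TATAAA or its reverse TTTATA, found in 12.4% of all promoters. These are matches of letters in a window and not sites of binding.

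Of the 10 factors, 6 were higher in NIH/3T3 by the rule used in place of a test, a CPM + 1 at least 4 times that of each other line. These were Prrx1, Runx1, Runx2, Osr1, Twist2, and Twist1. None of the factors met the rule in N2a or mESCs (0 of 10 in each). Among all 19248 genes with at least 10 UMIs over the 3 lines, 3.78% met the rule in NIH/3T3, 4.31% in N2a, and 6.03% in mESCs. The other 4 were Prrx2 with its highest level in N2a, Snai2 and Meox1 at low levels, and Tcf21 with no UMI. The median level of the 10 factors was 70.7 CPM in NIH/3T3, 0.418 CPM in N2a, and 0.852 CPM in mESCs, beside medians of 7.10, 8.02, and 8.28 CPM over all tested genes in the same order. The plot of levels per line shows this gap for the 6 genes.

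**Figure D1:**
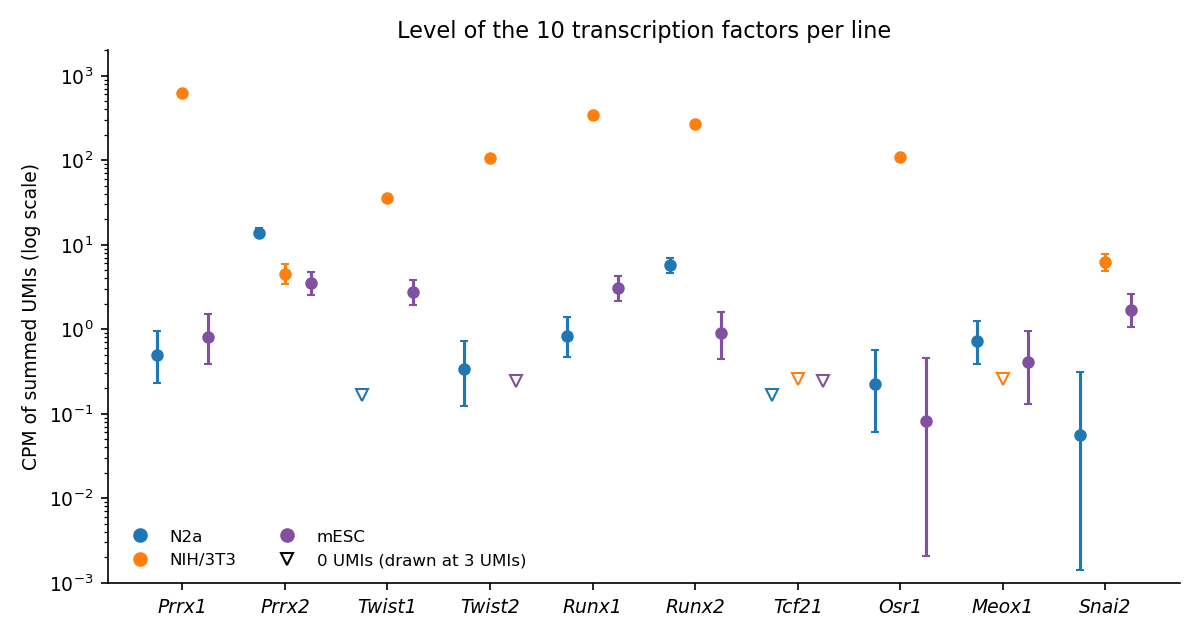
Level of each of the 10 factors in N2a, NIH/3T3, and mESCs, as CPM of UMIs summed over cells on a log axis. Points are 1 library each, bars are exact Poisson 95% intervals, and open triangles mark genes with 0 UMIs, drawn at the level of 3 UMIs. In NIH/3T3, 6 genes lie between 35.5 and 622 CPM, whereas no factor exceeds 13.9 CPM in the other lines.

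Prrx1 (ENSMUSG00000026586, GRCm39 chromosome 1, 163041844 to 163142033, minus strand) had the highest summed level of the 10. In NIH/3T3 it had 7281 UMIs and 622 CPM (608 to 637), in N2a 9 UMIs and 0.501 CPM (0.229 to 0.951), and in mESCs 10 UMIs and 0.812 CPM (0.389 to 1.49). NIH/3T3 was the high line, and the intervals of N2a and mESCs overlapped. The Prrx1 level in NIH/3T3 was 1242 times that in N2a (654 to 2717) and 767 times that in mESCs (417 to 1600). Prrx1 ranked 184 of 19248 genes by CPM in NIH/3T3. At least 1 UMI was found in 83.8% of NIH/3T3 cells (82.1% to 85.4%), in 0.387% of N2a cells (0.177% to 0.734%), and in 0.421% of mESCs (0.193% to 0.798%). After each cell was thinned to 1000 UMIs, the expected shares were 43.0%, 0.0596%, and 0.0688% in the same order.

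Its paralog Prrx2 (ENSMUSG00000039476, chromosome 2, 30724984 to 30774419, plus strand) had the opposite order of N2a and NIH/3T3. It had 249 UMIs and 13.9 CPM in N2a (12.2 to 15.7), 53 UMIs and 4.53 CPM in NIH/3T3 (3.39 to 5.93), and 43 UMIs and 3.49 CPM in mESCs (2.53 to 4.70). N2a was the high line, and NIH/3T3 and mESCs overlapped, with a fold of 1.30 (0.852 to 1.99). The N2a level was 3.06 times that in NIH/3T3 (2.27 to 4.20) and 3.97 times that in mESCs (2.87 to 5.63), which was short of the rule. Prrx1 made up 99.3% of the Prrx UMIs in NIH/3T3 (99.1% to 99.5%), 3.49% in N2a (1.61% to 6.52%), and in mESCs 18.9% (9.44% to 32%). The major Prrx gene therefore differed between NIH/3T3 and the other lines. Prrx2 UMIs were found in 199 N2a cells, or 8.57% (7.46% to 9.78%), of which 160 held a single UMI. Of these cells, 2 held Prrx1 UMIs.

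Of the Twist genes, Twist2 (ENSMUSG00000007805, chromosome 1, 91729176 to 91796542, plus strand) had 1240 UMIs and 106.0 CPM in NIH/3T3 (100.2 to 112), 6 UMIs and 0.334 CPM in N2a (0.123 to 0.727), and 0 UMIs in mESCs. The Twist2 level in NIH/3T3 was 317 times that in N2a (145 to 866) and 435 times the floor of 3 UMIs in mESCs. Twist1 (ENSMUSG00000035799, chromosome 12, 34007645 to 34009828, plus strand) had 415 UMIs and 35.5 CPM in NIH/3T3 (32.1 to 39.1), 0 UMIs in N2a, and 34 UMIs and 2.76 CPM in mESCs (1.91 to 3.86). The level in NIH/3T3 was 12.9 times that in mESCs (9.05 to 18.8) and 212 times the floor of 3 UMIs in N2a. NIH/3T3 was the high line for both genes, but the line at 0 was mESC for Twist2 and N2a for Twist1. All 34 Twist UMIs of mESCs were Twist1, for which the lower bound is 89.7%, whereas Twist1 made up 25.1% of 1655 Twist UMIs in NIH/3T3 (23.0% to 27.2%). In NIH/3T3, 808 cells (39.7%) held Twist2 and 342 (16.8%) held Twist1, and 171 held both. A long noncoding RNA on the other strand of Twist2, Gm29100, had 14 UMIs in NIH/3T3. Whether strand was used in counting is not given in the sources used here.

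Runx1 (ENSMUSG00000022952, chromosome 16, 92398354 to 92623037, minus strand) had 3999 UMIs and 342 CPM in NIH/3T3 (331 to 353), 15 UMIs and 0.835 CPM in N2a (0.468 to 1.38), and 38 UMIs and 3.08 CPM in mESCs (2.18 to 4.23). All 3 intervals were separate. The level in NIH/3T3 was 409 times that in N2a (248 to 732) and 111 times that in mESCs (80.6 to 157). Runx2 (ENSMUSG00000039153, chromosome 17, 44806874 to 45125684, minus strand) had 3102 UMIs and 265 CPM in NIH/3T3 (256 to 275), 103 UMIs and 5.74 CPM in N2a (4.68 to 6.96), and 11 UMIs and 0.893 CPM in mESCs (0.446 to 1.60). The intervals were again separate, with N2a and mESCs in the reverse order to Runx1. The level in NIH/3T3 was 46.2 times that in N2a (38.0 to 56.8) and 297 times that in mESCs (166 to 596).

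Of 7118 Runx UMIs in NIH/3T3, 56.2% were Runx1 (55.0% to 57.3%), 43.6% were Runx2, and 0.239% were Runx3, the third gene of the family. In N2a, 75.7% of 136 Runx UMIs were Runx2 (67.6% to 82.7%), and in mESCs 45.6% of 90 were Runx3 (35.0% to 56.4%) and 42.2% Runx1 (31.9% to 53.1%), with overlapping intervals. The plot of family composition shows this change of the leading gene between lines for the Prrx, Twist, Runx, and Osr families, whereas Snai1 led the Snai family in each line. In NIH/3T3, Runx1 was found in 66.1% of cells (64.0% to 68.2%), Runx2 in 63.9% (61.7% to 66.0%), and both in 937 of 2037 cells. Runx2 overlaps Supt3 on the other strand, a gene of a transcription coactivator complex, with levels of 181, 161, and 81.0 CPM in N2a, NIH/3T3, and mESCs. If strand was not used, reads of the 2 genes could not be told apart where they overlap, and the part of this in the low Runx2 levels was not tested.

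**Figure D2:**
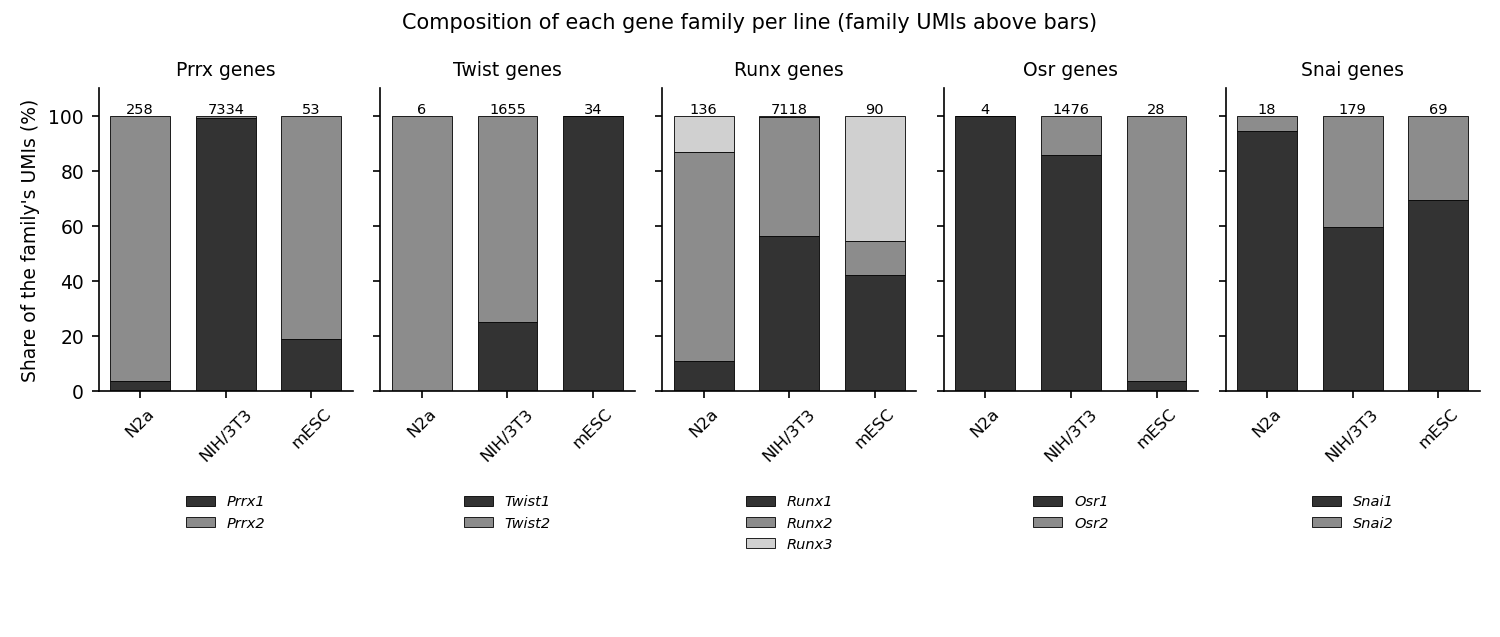
Share of the UMIs of each gene family held by each of its genes (vertical axis, %), in the 3 lines, with the number of family UMIs above each bar. In NIH/3T3, Prrx1 holds 99.3% of 7334 UMIs and Runx1 56.2% of 7118, whereas in N2a Prrx2 holds 96.5% of 258 and Runx2 75.7% of 136. Bars over fewer than 20 UMIs (Twist, Osr, and Snai in N2a) have wide intervals.

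Osr1 (ENSMUSG00000048387, chromosome 12, 9538061 to 9631513, plus strand) had 1268 UMIs and 108 CPM in NIH/3T3 (103 to 115), 4 UMIs and 0.223 CPM in N2a (0.0607 to 0.570), and 1 UMI and 0.0812 CPM in mESCs (0.00205 to 0.452). N2a and mESCs overlapped, and NIH/3T3 was 487 times N2a (190 to 1789) and 1336 times mESCs, the latter with an interval from 239 upward because of the single UMI. It was found in 38.4% of NIH/3T3 cells (36.3% to 40.6%). The related zinc finger gene Osr2 had 208 UMIs and 17.8 CPM in NIH/3T3, 0 UMIs in N2a, and 27 UMIs in mESCs, where it made up 96.4% of 28 Osr UMIs (81.7% to 99.9%), against 14.1% of 1476 in NIH/3T3 (12.4% to 16.0%).

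The remaining 3 factors were low or absent in all lines. Snai2 (ENSMUSG00000022676, chromosome 16, 14523425 to 14527252, plus strand) had 72 UMIs and 6.15 CPM in NIH/3T3 (4.82 to 7.75), 21 UMIs and 1.70 CPM in mESCs (1.05 to 2.61), and 1 UMI in N2a. NIH/3T3 was the high line at 3.61 times mESCs (2.20 to 6.18), and on the CPM + 1 scale the ratio was also below 4. Its paralog Snai1 had 107, 48, and 17 UMIs in NIH/3T3, mESCs, and N2a, and Snai2 made up 40.2% of Snai UMIs in NIH/3T3 (33.0% to 47.8%) against 30.4% for mESCs (19.9% to 42.7%), with overlapping intervals. Meox1 (ENSMUSG00000001493, chromosome 11, 101768336 to 101785227, minus strand) had 13 UMIs and 0.724 CPM in N2a (0.386 to 1.24), 5 UMIs and 0.406 CPM in mESCs (0.132 to 0.947), and 0 UMIs in NIH/3T3. The N2a and mESC intervals overlapped. Tcf21 (ENSMUSG00000045680, chromosome 10, 22692803 to 22696073, minus strand) had 0 UMIs in each line, which allows a share of up to 0.129% of N2a cells, 0.147% of NIH/3T3 cells, and 0.140% of mESCs with a UMI.

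Small counts in the other lines were set beside those of fibroblast marker genes fixed for NIH/3T3, since free RNA adds UMIs to cells that do not express a gene. In N2a, Col1a2, a chain of type I collagen, had 0.169% of its NIH/3T3 level (0.0925% to 0.284%) and Cav1, the main protein of caveolae, 0.191% (0.0824% to 0.376%). In mESCs they had 0.194% (0.0968% to 0.347%) and 0.243% (0.0979% to 0.502%). Prrx1 was at 0.0805% (0.0368% to 0.153%) and 0.130% (0.0625% to 0.240%), overlapping the intervals of both markers in each line. An overlap with both markers was also found for the intervals of Osr1 in both lines, Twist2 in N2a, Runx1 in N2a, and Runx2 in mESCs. Above the intervals of both markers were Runx2 in N2a at 2.16% (1.77% to 2.62%), Twist1 in mESCs at 7.78% (5.39% to 10.9%), and Runx1 in mESCs at 0.902% (0.638% to 1.24%). Col1a1, another fixed marker, was at 2.56% in mESCs from 9 UMIs (1.17% to 4.86%), which overlapped the interval of Runx1. These percentages were computed only for genes with at least 100 UMIs in NIH/3T3, which left out the fixed marker Thy1. Thy1 had 70 UMIs and 5.98 CPM in NIH/3T3, and 14 UMIs and 1.14 CPM in mESCs (0.621 to 1.91). It thus kept a larger part of its NIH/3T3 level in mESCs than Twist1, so Twist1 was not above every fixed marker.

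The cells behind these values were examined for fibroblast transcripts. The 90 N2a cells with Runx2 held 2 UMIs of the 6 fibroblast markers, or 1.73 CPM, beside 1.67 CPM in the remaining N2a cells and 953 CPM in NIH/3T3. The 32 mESCs with Twist1 held 0 marker UMIs, and the 34 with Runx1 held 1. The 199 N2a cells with Prrx2 held 2 marker UMIs, or 0.883 CPM, beside 1.78 CPM in the rest. The 19 mESCs with Snai2 held 3 marker UMIs in 3 cells, or 22.7 CPM against 3.28 CPM in the rest. Cells with a factor were deeper than the rest in each case, with medians of 10707 against 6000 UMIs for Runx2 in N2a and 8764.5 against 4791 UMIs for Twist1 in mESCs.

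Within NIH/3T3, most cells held several of the factors. At least 1 of the 10 was found in 1969 of 2037 cells, or 96.7% (95.8% to 97.4%), with a median of 3 and at most 7, the latter in 9 cells. In N2a, 314 of 2323 cells held any, or 13.5% (12.2% to 15.0%), and in mESCs 140 of 2137, or 6.55% (5.54% to 7.68%). At least 3 factors were found in 66.1% of NIH/3T3 cells, in 1 N2a cell, and in 0 mESCs. With each cell thinned to 1000 UMIs, the expected share with any factor was 74.2% in NIH/3T3, 2.12% in N2a, and 1.38% in mESCs. Prrx1 alone made up 41.8% of the 17430 UMIs of the 10 factors in NIH/3T3. The 68 NIH/3T3 cells with no factor had a median of 1676 UMIs, against 5024 in the rest. Their level of the 6 fibroblast markers was 814 CPM, against 955 CPM, and 49 of them held a marker UMI.

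**Figure D3:**
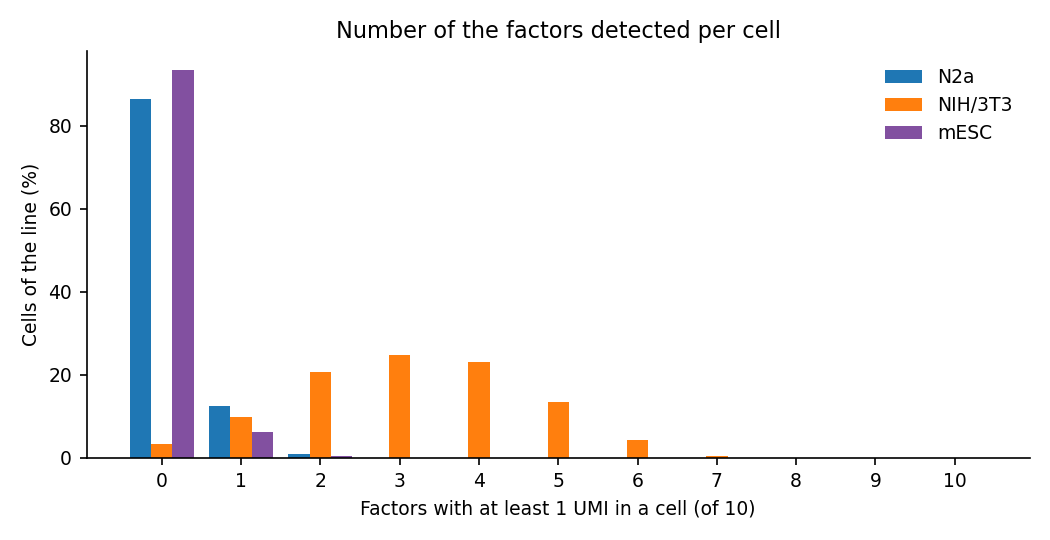
Share of the cells of each line (vertical axis, %) by the number of the 10 factors with at least 1 UMI in the cell (horizontal axis). NIH/3T3 cells peak at 3 factors with 24.9% of cells, whereas 86.5% of N2a cells and 93.4% of mESCs hold none.

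The UMIs of some factors were gathered in part of the NIH/3T3 cells. Spread evenly by depth, the mean level of Runx1 would be detected in 76.1% of cells, whereas 66.1% held it, and a single cell held 32 Runx1 UMIs. The observed share was 86.9% of the even share for Runx1, 90.9% for Osr1, 92.5% for Runx2, 94.0% for Prrx1, and 95.2% for Twist2. Over all 2478 genes between 100 and 1000 CPM in NIH/3T3, the median was 96.0% with an interquartile range of 94.0% to 97.4%, and 4.28% of them were lower than Runx1. Of the UMIs in NIH/3T3, the tenth of cells with the most UMIs of the gene held 40.3% for Runx1, 40.8% for Runx2, and 34.3% for Prrx1. This share was higher for the less abundant factors, with 44.5% for Twist2, 47.4% for Osr1, and 66.7% for Twist1. No even share was computed for it, so it does not by itself show gathering.

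Detection followed depth, and the level did so less. From the shallowest to the deepest 25% of NIH/3T3 cells, with medians of 1972 and 10209.5 UMIs, the share with Prrx1 went from 61.3% to 98.6%, while its level went from 564 CPM (519 to 612) to 634 CPM (613 to 655), with intervals that did not overlap. The share with Runx1 went from 39.7% to 88.4% and that with Twist2 from 19.6% to 63.7%. The levels of Runx1 were 337 CPM (302 to 375) and 358 CPM (342 to 374), and those of Twist2 117 CPM (96.8 to 140.1) and 104 CPM (95.5 to 112), with overlapping intervals.

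Across single NIH/3T3 cells, the measured correlations between the factors were low. Over the 15 pairs of the 6 genes found in at least 10% of cells, Spearman's rho of counts relative to cell depth ranged from 0.0038 to 0.106 with a median of 0.0405 (2037 cells of 1 library, sparse counts). The highest value was that of Runx1 and Runx2. On raw counts, which share the depth of the cell, the same pair had 0.331. Sparse counts lower rho, so these values do not tell whether the factors vary independently.

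The 32 BC1 barcodes of a line are wells of the same culture, and were used to see the spread between wells. In NIH/3T3 a well held 33 to 96 cells, so this spread mixes differences between cells with technical ones. For Prrx1 in NIH/3T3, the lowest well had 401 CPM, the median 628 CPM, and the highest 753 CPM, a coefficient of variation of 12.4% where counting alone would give 6.93%. Runx1 ranged from 224 over a median of 334 to 481 CPM, Runx2 from 152 over 261 to 368 CPM, Osr1 from 62.1 over 110.5 to 135 CPM, Twist2 from 56.4 over 107 to 175 CPM, and Twist1 from 17.3 over 34.4 to 72.0 CPM. For these 6 genes, all 32 wells of NIH/3T3 held UMIs, and no well of N2a or mESCs reached the lowest NIH/3T3 well. The nearest in ratio was Twist1 in mESCs, with a highest well at 8.57 CPM. Runx2 in N2a was found in 28 wells, and the highest had 16.6 CPM. Prrx2 was found in all 32 N2a wells, from 5.07 over 13.4 to 25.9 CPM, and its highest well was 15.0 CPM in NIH/3T3 against 16.5 CPM for mESCs, so the wells overlapped.

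**Figure D4:**
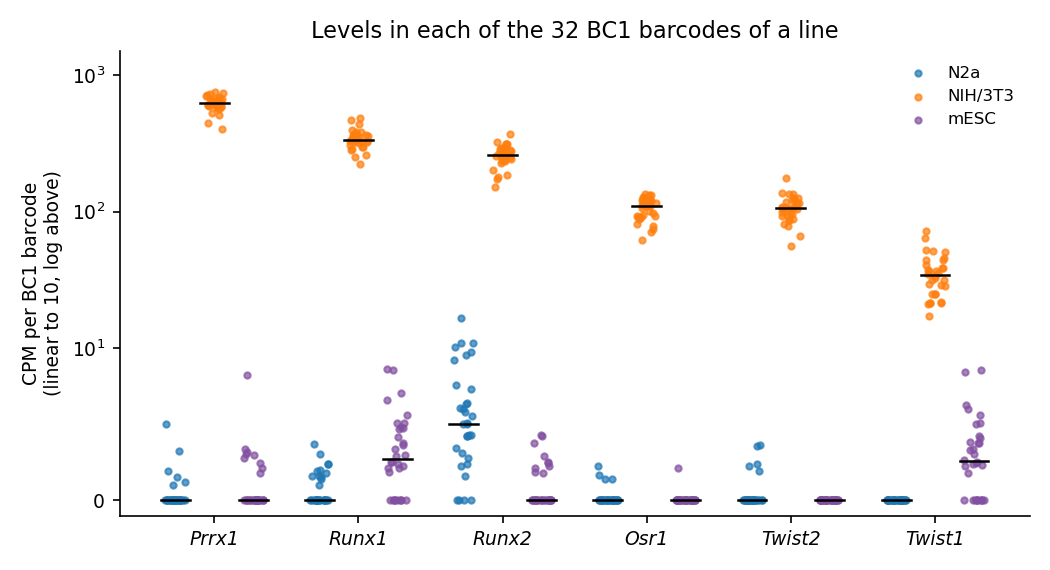
CPM of 6 factors in each of the 32 BC1 barcodes of a line (points, vertical axis linear up to 10 CPM and logarithmic above), with the median as a line. For each gene the lowest NIH/3T3 barcode, from 17.3 CPM for Twist1 to 401 CPM for Prrx1, lies above the highest N2a and mESC barcode. The barcodes are wells of 1 culture and not replicates.

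The order of the factors within NIH/3T3 changed when the UMI levels were divided by gene length. Whether UMI counts rise with length in these data was not tested, so the divided values are not levels. The way reads in introns were counted is not given in the sources used here. Without division, Prrx1 was first at 622 CPM, and Twist1 at 35.5 CPM was the lowest of the factors that met the rule. Per kilobase of exons (GENCODE M39), the level in NIH/3T3 was 37.6 CPM for Prrx1, 30.0 for Runx2, 27.0 for Runx1, 21.5 for Twist1, 19.0 for Twist2, 13.3 for Osr1, and 2.66 for Snai2. Per kilobase of the whole gene, Twist1 with 2184 bases was first at 16.2 CPM, followed by Prrx1 at 6.21 CPM, Snai2 at 1.61 CPM, and Twist2 at 1.57 CPM. Prrx1 was above Twist2, Runx1, Runx2, and Osr1 on both scales.

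Among all genes, those nearest to Prrx1 in log2(CPM + 1) over the 3 lines were Il1rl1, the receptor of interleukin 33, at a distance of 0.303, Col1a2 at 0.502, and Col4a5, a chain of type IV collagen, at 0.575. Their levels in NIH/3T3 were 596, 461, and 511 CPM. With 3 lines, the distance says only that the levels were alike.

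Other transcription factors of mesenchyme formed a list of 30 genes. Of the 21 with at least 10 UMIs, 7 met the rule in NIH/3T3, 1 in N2a, and 2 in mESCs. Of these 7, the 6 with the highest levels in NIH/3T3 were Ebf1 at 237 CPM, Sox9 at 150 CPM, Tbx15 at 71.9 CPM, Foxc1 at 32.3 CPM, Foxc2 at 20.9 CPM, and Osr2 at 17.8 CPM. Ebf1, a factor of B cells and of connective tissue progenitors, was 170 times N2a (115 to 264) and 18.1 times mESCs (15.5 to 21.4). Sox9, which directs cartilage formation, was 4.27 times N2a (3.90 to 4.68), where it had 35.2 CPM, and 185 times mESCs (100.5 to 387). In N2a the gene was the forkhead factor Foxd1 at 13.3 CPM, with 0 UMIs in NIH/3T3. In mESCs they were Tcf15 at 8.52 CPM and Msx2 at 3.98 CPM, both with 0 UMIs in N2a and NIH/3T3. The zinc finger repressors Zeb1 and Zeb2, known from the epithelial to mesenchymal transition, met the rule in no line. Zeb1 had 203, 256, and 172 CPM in N2a, NIH/3T3, and mESCs, and Zeb2 had 277, 138, and 3.98 CPM. The plot of the other factors shows these levels.

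**Figure D5:**
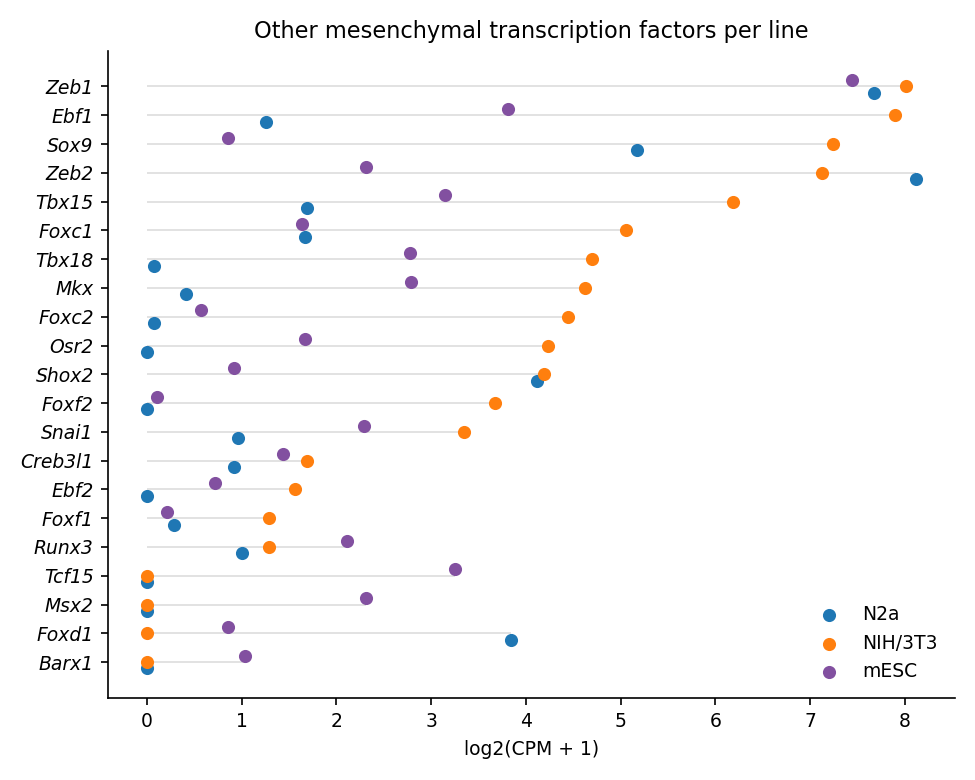
Level of the 21 other mesenchymal factors with at least 10 UMIs, as log2(CPM + 1) in each line (horizontal axis), ordered by NIH/3T3. Each point is 1 library. NIH/3T3 is the highest line for 15 of the 21, whereas Zeb2 and Foxd1 are highest in N2a and Tcf15, Msx2, Barx1, and Runx3 are highest in mESCs.

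The partners and cofactors of these proteins were mostly present in all lines. Of 20 listed genes, 0 met the rule in NIH/3T3 or mESCs and 1 in N2a, Tcf4, an E protein that pairs with TWIST, whose level was 1625 CPM in N2a, against 251 CPM for NIH/3T3 and 265 CPM for mESCs. Cbfb, the partner of the RUNX proteins, was named outside the rule for named genes, after its values were seen. The same holds for Yap1, Wwtr1, Id4, and Sp7. Cbfb had 177, 136, and 122 CPM in N2a, NIH/3T3, and mESCs, and thus lay within a far smaller range than Runx1 and Runx2. The E protein gene Tcf12 had 452, 332, and 221 CPM. Tead1 had 278, 318, and 687 CPM, Tle4 435, 109, and 514 CPM, Kdm1a 162, 62.5, and 257 CPM, and Hdac1 147, 178, and 242 CPM in the same order.

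Of 24 genes known as targets of these factors, 20 had at least 10 UMIs, of which 4 met the rule in NIH/3T3, 0 in N2a, and 5 in mESCs. In NIH/3T3 they were Vim, the intermediate filament of mesenchymal cells, at 1888 CPM, the receptor kinase Axl at 272 CPM, the receptor gene Pdgfra at 48.1 CPM, and the gelatinase Mmp2 at 8.12 CPM. Axl was 18.1 times N2a (15.9 to 20.5) and 373 times mESCs (196 to 816). In mESCs they were Cdh1, which encodes E-cadherin and is repressed by SNAI2, at 298 CPM, the phosphatase gene Alpl at 224 CPM, the tight junction genes Cldn4 at 18.4 CPM and Ocln at 11.3 CPM, and the growth factor gene Fgf10 at 3.90 CPM. Cdh1 had 3.33 CPM in NIH/3T3 and 0.557 CPM in N2a. Of the 24 targets, 5 had 0 UMIs in NIH/3T3, 5 in N2a, and 4 in mESCs. Those at 0 in NIH/3T3 were Alpl and, named outside the rule for named genes, Mmp13, Ibsp, Bglap, and Cebpa. Spp1, a secreted protein of bone matrix, met the rule in no line and had 2.12, 464, and 795 CPM in N2a, NIH/3T3, and mESCs. Fn1, the gene of fibronectin, had 113, 411, and 642 CPM in N2a, NIH/3T3, and mESCs, and Cdh2, the gene of N-cadherin, 298, 322, and 14.4 CPM.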

How the data were processed

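Single-cell RNA was measured in N2a, NIH/3T3, and mESC cells. The authors converted the reads with bcl2fastq, split them by BC1, trimmed the TSO with Cutadapt, and counted them with STARsolo on GRCm39 (GENCODE M30). The deposited matrices hold unnormalized counts of UMIs for each gene in each barcode, 1 matrix per line and 1 that pools the lines without a split by BC1, with no cell filter. The pooled matrix holds the same experiment and served as an alternative only. The STARsolo feature mode and the use of strand are not given in the sources used here.

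From these counts, CPM, shares, folds, and intervals were computed with Python 3.11.15, numpy 2.4.6, scipy 1.17.1, and pandas 2.3.3. Thinning to 1000 UMIs used the hypergeometric expectation. A gene was taken as higher in a line when CPM + 1 was at least 4 times that of each other line, among genes with at least 10 UMIs over the lines. Named genes were the 10 factors, the genes of 3 lists that met this rule (at most 6 per list and line), up to 6 genes per list at 50 CPM or more that did not, and the 3 genes nearest to Prrx1. Of these, 1 gene is not reported here. The factors and lists were chosen with earlier results of these data known. Positions came from GENCODE M39 on GRCm39, and promoter windows from RefSeq (GRCm38.p6). Doublets were not called. The rule was tested on simulated counts. Alternatives changed the cell filter, the barcodes used, the matrix, the averaging, the fold, the pseudocount, and the low-count filter.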

Additional observations from a re-analysis of the deposited data

How the results depend on the processing

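The 6 factors higher in NIH/3T3 met the rule under each of the 10 alternatives, and Meox1 and Tcf21 met it under none. With a fold of 2, Prrx2 met it in N2a, which gave 1 factor there, and Snai2 met it in NIH/3T3. Over all genes, the numbers higher in N2a, NIH/3T3, and mESCs were 1917, 1728, and 2472 with a fold of 2, 412, 411, and 622 with a fold of 8, and 1406, 1138, and 2062 with a pseudocount of 0.1 CPM, against 830, 728, and 1160. With a fold of 2, 11 other mesenchymal factors, 2 partners, and 8 targets were higher in NIH/3T3, and 2 partners in mESCs. With a fold of 8, 0 other factors and 0 partners were higher in N2a, 2 targets in NIH/3T3, and 1 other factor and 3 targets in mESCs.

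Of the 30 levels, 1 left its interval with the mean of the cells' CPM (Prrx1 in NIH/3T3, 601 CPM), 1 with all barcodes (Prrx1 in mESCs, 1.51 CPM), and 1 without the 5% of cells with the most UMIs (Snai2 in N2a, to 0). Of the 30 shares, 23 moved with all barcodes, most of which hold few UMIs, and 5 with a minimum of 2000 UMIs, where Runx1 was found in 71.5% of NIH/3T3 cells. No paired analysis was possible because each line was 1 library. Depth limits the genes with few UMIs, Meox1, Tcf21, and Snai2.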

Other observations

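Barcodes below the filter, which the comparisons did not use, also held UMIs of the factors. In NIH/3T3, among 166628 such barcodes with 1807162 UMIs, Prrx1 had 566 CPM (95% exact Poisson interval 532 to 602), Runx1 295 CPM (270.4 to 321), and Runx2 210 CPM (190 to 233), and the intervals of all 3 lay below the levels in cells. Below the filter in mESCs, Prrx1 had 11 UMIs and 7.08 CPM (3.54 to 12.7) and Runx1 17 UMIs and 10.9 CPM (6.38 to 17.5), above the 0.812 and 3.08 CPM in cells. In N2a, Prrx1 had 8 UMIs and 2.95 CPM (1.28 to 5.82) below the filter, above the 0.501 CPM in cells, and Prrx2 had 22 UMIs and 8.13 CPM (5.09 to 12.3), below the 13.9 CPM in cells.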
